A study of Mus musculus with 10 samples.

Results

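Mpo, Elane, Prtn3, Ctsg, Ms4a3 and Ctsc were taken by name as genes of the azurophil (primary) granule and of the promyelocyte stage, and all 6 were present among the 32285 genes of the mouse count table. Each of the 10 libraries held total RNA pooled from the blood of 3 C57/BL6J mice, given as leukocyte, and every group had 1 library. A control library (Con, 0 h) was set beside 4 of mice deprived of sleep (SD) for 6, 12, 24 and 48 h, and 5 of mice under an earlier published sleep restriction procedure (SASD) for 6, 12, 24, 48 and 120 h. All mice, controls included, were anesthetized with pentobarbital at 80 mg/kg before blood was drawn from behind the eye into EDTA tubes. No genetic change was labelled in any group, and the age, the sex and the hour of sampling were not given in the sources used here.

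Neutrophils store antimicrobial proteins in granules that are filled in sequence during maturation in the bone marrow. The azurophil granule is filled at the promyelocyte stage, when Mpo, Elane, Prtn3 and Ctsg are transcribed strongly, and these transcripts are largely switched off before the secondary granule proteins (Ltf, Camp, Ngp) and then the tertiary granule and surface proteins of mature cells are made. Circulating mature neutrophils therefore carry the proteins but little of their mRNA, and the transcripts in blood are known mainly from immature cells. Mpo encodes myeloperoxidase, which makes hypochlorous acid from hydrogen peroxide and chloride. Elane, Prtn3 and Ctsg encode the serine proteases neutrophil elastase, proteinase 3 and cathepsin G. Ctsc encodes cathepsin C, the dipeptidyl peptidase that removes the activation dipeptide from these proteases and from granzymes, and it is also made by monocytes and lymphocytes. Ms4a3 encodes a 4-transmembrane protein of granulocyte-monocyte progenitors.

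On mm10 with GENCODE release 21 of the mouse series, Prtn3 (ENSMUSG00000057729) lies at chr10:79874476-79883174 and Elane (ENSMUSG00000020125) at chr10:79886247-79888215, both on the plus strand with 3072 bases between them. Mpo (ENSMUSG00000009350) lies on the plus strand at chr11:87793581-87804413, and Ctsc (ENSMUSG00000030560) on the plus strand at chr7:88278085-88310888. Ctsg (ENSMUSG00000040314) lies on the minus strand at chr14:56099881-56102574, and Ms4a3 (ENSMUSG00000024681) on the minus strand at chr19:11629496-11640851. Prtn3 overlaps Plppr3 on the opposite strand, Mpo overlaps the antisense gene Gm11505, and Ctsc overlaps the long non-coding gene Gm26522. The counts were made without strand, so reads from a gene and its opposite-strand partner cannot be told apart.

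The sequences before the RefSeq starts are shown because Mpo, Elane, Prtn3 and Ctsg each had most of their counts in the SD 48 h library. Ctsc, also highest there but abundant throughout, is shown for comparison. RefSeq promoters of GRCm38.p6 were matched for all 6 genes, and the 250 bases before each start were searched on both strands for GAGGAAGT (a PU.1 motif), AACGG (MYB), TTGCNNAA (C/EBP) and TGTGGT (RUNX). The stretches below read 5′ to 3′ on the gene's strand, matches are in capitals, and each stops at most 30 bases into the untranslated start of the exon it leads to in GENCODE. The Prtn3 stretch lies inside the GENCODE gene, which has a further exon upstream. The GENCODE genes of Mpo and Elane also begin before their RefSeq starts, so the distances of matches depend on the start used. The AACGG letters of Elane lie after its GENCODE start. They cover chr10:79879417-79879643 (plus strand), chr10:79886062-79886276 (plus), chr11:87793534-87793610 (plus), chr14:56102575-56102824 (minus) and chr7:88277835-88278084 (plus).
Prtn3: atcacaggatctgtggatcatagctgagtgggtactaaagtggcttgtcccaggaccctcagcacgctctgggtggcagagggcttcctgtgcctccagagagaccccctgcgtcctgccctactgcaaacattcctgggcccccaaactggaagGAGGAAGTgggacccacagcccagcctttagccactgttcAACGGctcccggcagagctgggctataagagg
Elane: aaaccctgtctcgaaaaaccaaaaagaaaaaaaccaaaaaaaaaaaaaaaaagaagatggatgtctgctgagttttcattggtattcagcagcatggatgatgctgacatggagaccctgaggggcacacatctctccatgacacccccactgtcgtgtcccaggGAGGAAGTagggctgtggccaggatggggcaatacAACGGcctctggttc
Mpo: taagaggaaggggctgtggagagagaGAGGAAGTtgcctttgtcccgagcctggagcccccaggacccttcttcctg
Ctsg: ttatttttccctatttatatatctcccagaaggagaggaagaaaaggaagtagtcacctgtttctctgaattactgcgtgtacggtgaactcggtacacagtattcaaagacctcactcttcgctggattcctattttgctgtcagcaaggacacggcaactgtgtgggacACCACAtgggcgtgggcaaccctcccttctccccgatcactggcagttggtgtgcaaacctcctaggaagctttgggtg
Ctsc: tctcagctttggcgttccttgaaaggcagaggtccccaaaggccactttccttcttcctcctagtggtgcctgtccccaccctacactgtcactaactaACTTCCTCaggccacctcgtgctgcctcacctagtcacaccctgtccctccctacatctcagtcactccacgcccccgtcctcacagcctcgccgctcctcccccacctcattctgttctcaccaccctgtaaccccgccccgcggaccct

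Elane and Prtn3, the neighbours on chromosome 10, had the same order of matches. GAGGAAGT stood 85 to 78 bases before the start in Elane and 95 to 88 in Prtn3, and AACGG followed at 50 to 46 and at 55 to 51 bases, with 27 and 32 bases between the matches. Mpo had GAGGAAGT at 224 to 217 bases, and Ctsc had it on the other strand (ACTTCCTC) at 151 to 144 bases. Ctsg had only the RUNX letters, on the other strand (ACCACA), at 79 to 74 bases, and Ms4a3 had none of the 4. Of 32851 RefSeq promoters of the same length, 2.44% held GAGGAAGT, 14.5% AACGG, 14.0% TGTGGT, 9.56% TTGCNNAA, and 0.317% both GAGGAAGT and AACGG. The C/EBP letters were absent from all 6 windows. No matches overlapped, the motifs were chosen with these sequences in view, and a match describes letters, not a bound site.

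**Figure D1:**
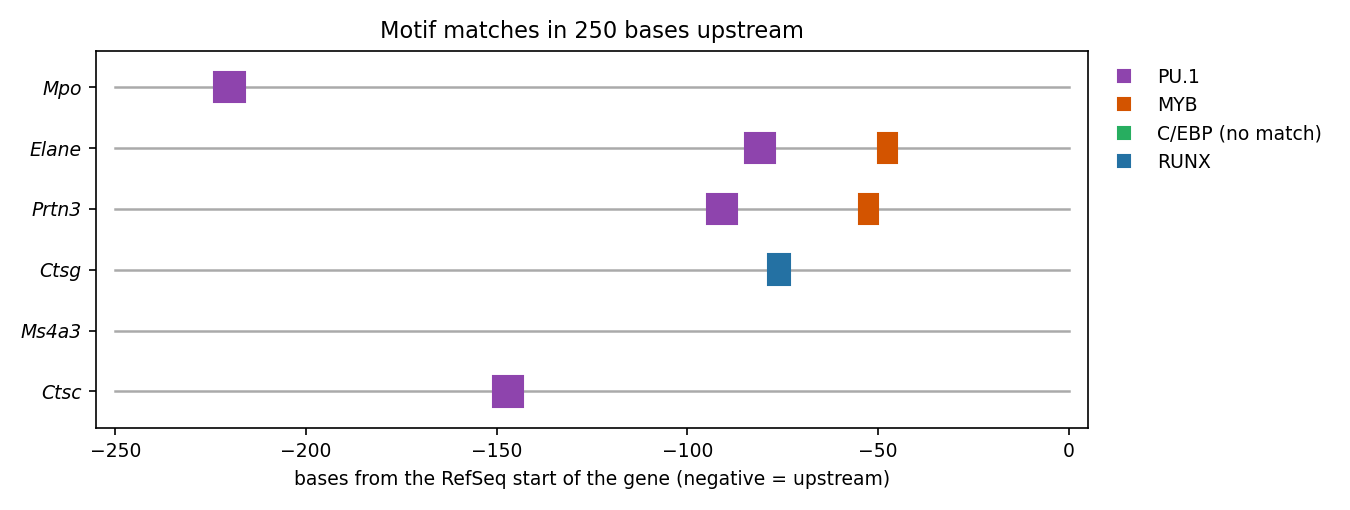
Positions of motif matches in the 250 bases before the RefSeq start of each gene, with the distance from the start in bases on the x axis and a row per gene; boxes are matches on either strand. Elane and Prtn3 have PU.1 then MYB letters at similar distances, while Mpo and Ctsc have PU.1 letters only, Ctsg RUNX letters only, and Ms4a3 none.

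Libraries held 7825120 to 27501393 counts in genes. Con, SD 48 h and SASD 48 h stood apart from the other 7: haemoglobin transcripts were 0.275% to 0.727% of their counts against 3.57% to 6.96%, and the mean of 1134 olfactory receptor genes, which blood is not known to use, was 0.0132 to 0.0554 CPM per kilobase against 0.00432 to 0.00572. The ratios of SD 48 h to SASD 48 h and to Con compare libraries on the same side of that split, and so do those within 6 to 24 h. Ratios of SD 24 h to Con and of SD 48 h to SD 24 h cross it, and its part in them was not tested. Levels below are counts scaled to 1000000 per library by TMM (CPM), and intervals are exact 95% intervals that cover counting error only. All 6 B cell and all 6 T cell markers had counts in every library. Markers of mature neutrophils (7 of 7 detected in every library) summed to 10567 CPM in SD 48 h, 6868 in SD 24 h, 5496 in SD 12 h and 1947 to 2879 elsewhere. Their part in the results was not tested, and in bulk blood a changed number of cells and a changed amount of RNA per cell cannot be told apart.

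The transcripts of Mpo, Elane, Prtn3, Ctsg and Ms4a3 were concentrated in the SD 48 h library. Mpo stood at 29.9 CPM there against at most 0.655 elsewhere, and Elane, Ctsg and Ms4a3 were at 0 to 3 counts in 7, 7 and 9 of the 10 libraries. Prtn3 departed from them by being raised at 24 h of SD already, at 5.80 CPM. Ctsc was abundant in every library and varied about as much in SASD as in SD.

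Mpo, the peroxidase of the granule, had 16 counts in Con, then 1, 1, 7 and 441 in SD at 6, 12, 24 and 48 h, and 2, 1, 0, 10 and 0 in SASD at 6, 12, 24, 48 and 120 h. On the CPM scale this was 0.500 in Con, 0.0951, 0.100, 0.655 and 29.9 in SD, and 0.191, 0.109, 0, 0.349 and 0 in SASD. SD 48 h held 92.1% of all Mpo counts and stood 45.7-fold above the next highest library, SD 24 h, which lies across the split. The ratio of SD 48 h to SASD 48 h was 85.7 (46.2 to 180), and that to Con was 59.9 (36.5 to 105.7). In 6 libraries Mpo had 3 counts or fewer, so it could not be ordered among them.

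Per kilobase of exon, Mpo in Con (0.146 CPM) was no higher than its chromosome 11 neighbour Lpo (0.159), the lactoperoxidase of secretory glands, and close to Epx (0.217), the eosinophil peroxidase. Mpo in SASD 48 h was at 0.102 CPM per kilobase and Lpo at 0.0891. In SD 48 h the values were 8.74 and 0.0866. Mpo stood clear of Lpo in SD 48 h alone of these 3 libraries.

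Elane, the elastase of the granule, had 13 counts in Con, 0, 0, 1 and 161 in SD, and 0, 0, 0, 4 and 0 in SASD. The corresponding levels were 0.406 CPM in Con, 0.0936 in SD 24 h, 10.9 in SD 48 h and 0.1396 in SASD 48 h. It was undetected in 6 of 10 libraries, where the upper end of its interval lay between 0.343 and 0.571 CPM. SD 48 h held 89.9% of its counts. The ratio of SD 48 h to SASD 48 h was 78.2 (29.97 to 291), and that to Con was 26.9 (15.3 to 51.6).

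Ctsg, the chymotrypsin-like cathepsin G, had 8 counts in Con, 2, 0, 0 and 110 in SD, and 0, 1, 0, 7 and 1 in SASD. Its level was 7.46 CPM in SD 48 h, against 0.250 in Con and 0.244 in SASD 48 h, and at most 0.190 in the remaining 7 libraries. SD 48 h stood 30.5-fold (14.3 to 77.7) above SASD 48 h and 29.9-fold (14.6 to 70.9) above Con. Mast cells also make cathepsin G. The 7 basophil and mast cell markers summed to 24.8 CPM in SD 48 h, their lowest library, against 27.5 to 62.3 elsewhere, and the part of these cells in Ctsg was not tested. At SD 24 h Ctsg and Ms4a3 had no count, although Prtn3 had 62.

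Ms4a3, the progenitor membrane protein, was the scarcest, with 3 counts in Con, 1, 0, 0 and 39 in SD, and 0, 0, 0, 3 and 0 in SASD. Its level was 2.65 CPM in SD 48 h and at most 0.105 in the other libraries. The ratio to SASD 48 h was 25.3 (8.03 to 128) and that to Con 28.2 (8.98 to 143), both resting on 3 counts in the denominator.

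Prtn3, the proteinase 3 gene, had 24 counts in Con, 2, 6, 62 and 235 in SD, and 10, 4, 7, 23 and 1 in SASD. As CPM these were 0.750 in Con, 0.190, 0.602, 5.80 and 15.9 in SD, and 0.957, 0.434, 1.08, 0.803 and 0.0929 in SASD. At 24 h SD exceeded SASD 5.35-fold (2.45 to 13.9), and SD 24 h exceeded SD 12 h 9.64-fold (4.19 to 27.3) and, across the split, Con 7.74-fold (4.76 to 12.97). At 6 h the order was opposite, the SD level being 0.199 (0.0212 to 0.932) of that in SASD, from 2 and 10 counts. At 48 h the ratio of SD to SASD was 19.9 (12.9 to 31.9), and SD 48 h stood 2.75-fold above SD 24 h, the next highest library and across the split. The opposite-strand gene Plppr3 ranged from 7.78 to 16.2 CPM, and its highest library was SD 24 h (12.9 in SASD 24 h); its part in the Prtn3 count was not tested.

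The mix of the 5 scarce transcripts differed between the SD libraries of 24 and 48 h. Prtn3 made up 88.6% (78.7 to 94.9, exact binomial) of their 70 counts in SD 24 h and 23.8% (21.2 to 26.6) of 986 in SD 48 h, while Mpo went from 10% (4.12 to 19.5) to 44.7% (41.6 to 47.9). In Con Prtn3 made up 37.5% (25.7 to 50.5) of 64 counts, and in SASD 48 h 48.9% (34.1 to 63.9) of 47. The Prtn3 shares of Con, SASD 48 h and SD 48 h had intervals clear of that in SD 24 h. The other libraries had few counts: Prtn3 made up 100% (59.0 to 100) of 7 in SASD 24 h, 85.7% (42.1 to 99.6) of 7 in SD 12 h, 83.3% (51.6 to 97.9) of 12 in SASD 6 h and 66.7% (22.3 to 95.7) of 6 in SASD 12 h, with 2 of 6 in SD 6 h and 1 of 2 in SASD 120 h. SD 24 h and SD 48 h lie on opposite sides of the library split, so the change of mix and the split cannot be told apart.

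Levels were compared between genes per kilobase of exon. In SD 48 h the order was Ctsc (47.6 CPM per kilobase, 46.1 to 49.1), Elane (11.1, 9.45 to 12.95), Prtn3 (9.21, 8.07 to 10.5), Mpo (8.74, 7.94 to 9.59), Ctsg (7.22, 5.94 to 8.71) and Ms4a3 (1.40, 0.999 to 1.92). Neighbours in the run from Elane to Ctsg had overlapping counting intervals, whereas Ctsc and Ms4a3 were clear of their neighbours. Mpo had the most counts of the 5 scarce genes but not the highest value per length.

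**Figure D2:**
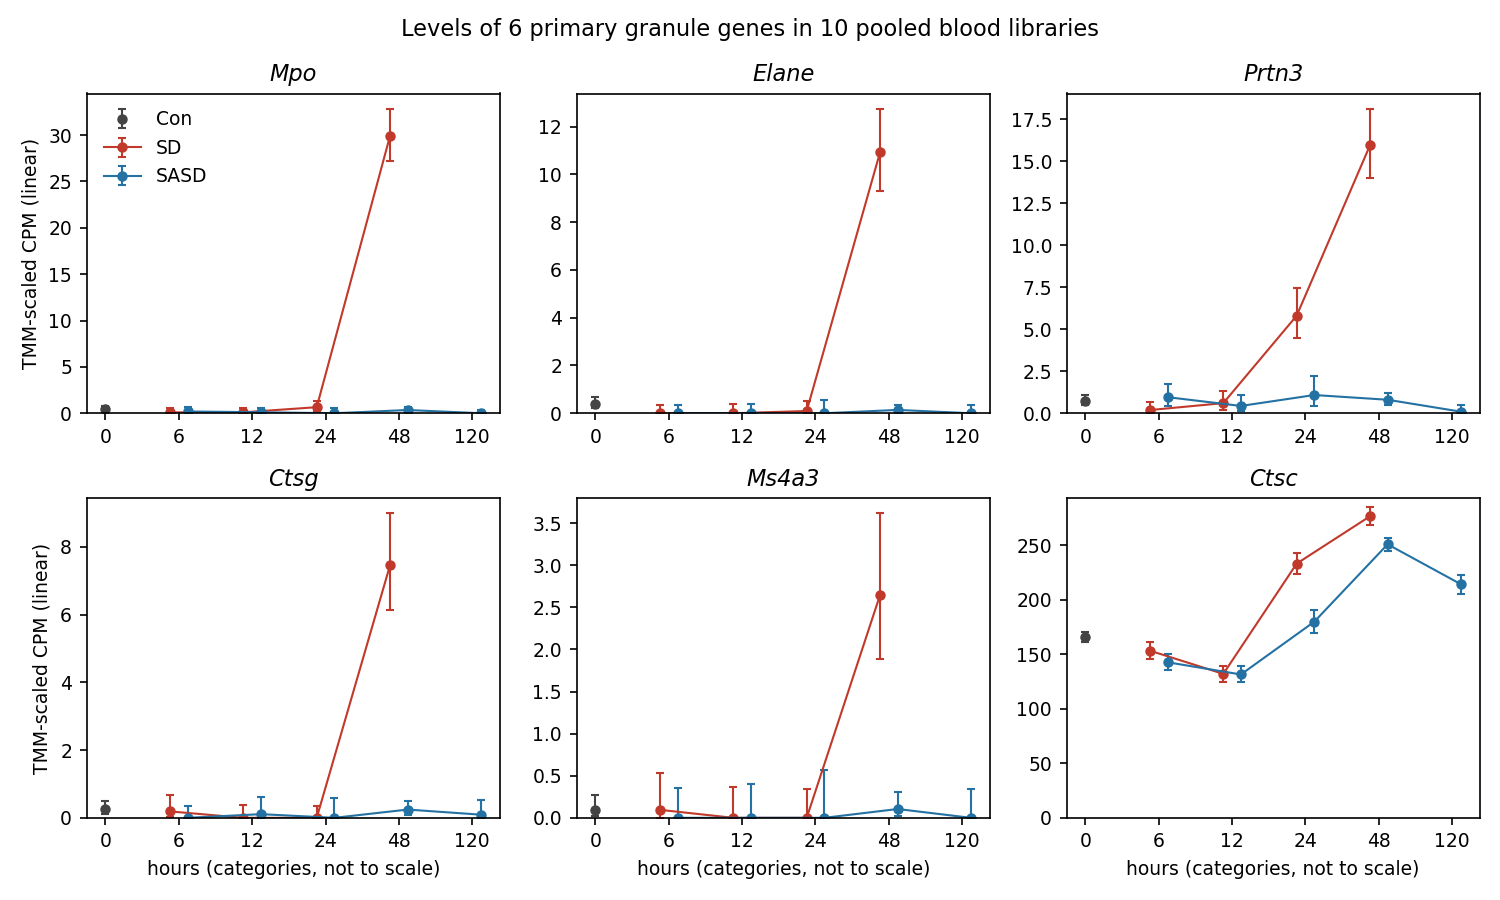
Level of each gene in TMM-scaled CPM (linear y axis, own scale per panel) against hours (x axis, categories) in Con, SD and SASD; points are pooled libraries and bars are exact 95% counting intervals. Mpo, Elane, Ctsg and Ms4a3 leave the baseline only at SD 48 h, Prtn3 also at SD 24 h (5.80 CPM), and Ctsc stays between 131 and 276 CPM.

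Ctsc, the activating peptidase, had 5301 counts in Con, 1611, 1315, 2489 and 4073 in SD, and 1489, 1210, 1160, 7180 and 2305 in SASD. On the CPM scale this was 165.6 in Con, 153, 132, 233 and 276 in SD, and 143, 131, 179.7, 250.6 and 214 in SASD. Both procedures were lowest at 12 h and high at 48 h. SD stood above SASD 1.30-fold (1.21 to 1.39) at 24 h and 1.10-fold (1.06 to 1.15) at 48 h, with 1.07 (1.001 to 1.15) at 6 h and 1.004 (0.928 to 1.09) at 12 h. The ratio to Con was 1.67 (1.60 to 1.74) for SD 48 h and 1.51 (1.46 to 1.57) for SASD 48 h. Summed classical monocyte markers (6 of 6 detected) were 2633 CPM in SD 48 h, 2159 in SASD 48 h, 2802 in SD 24 h, 1504 in SASD 120 h and 1672 in SASD 24 h, and 647 to 1134 in the other 5 libraries. The 5 libraries named were also those with the highest Ctsc, and the part of monocytes in its level was not tested.

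At 48 h 5 of the 6 members were at least 8-fold higher in SD than in SASD, where 0.317% of 14836 genes were. On a log2 scale with a prior count of 2 the values were 5.94 for Mpo, 5.31 for Elane, 4.31 for Ctsg, 4.09 for Prtn3, 3.51 for Ms4a3 and 0.14 for Ctsc. Their ranks from the top were 4, 7, 13, 17, 33 and 5028. The same 5 of 6 were at least 2-fold higher, where 4.62% of genes were. Against Con, 5 of 6 were at least 8-fold higher (0.248% of 16904 genes) and the same 5 at least 2-fold (3.8%). Of these 5, all but Prtn3 reached the minimum mean count only through the SD 48 h library. There was 1 library per group, so no p-value belongs to these ratios.

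Steady differences were asked of edgeR's quasi-likelihood test, whose p-values measure the spread between pooled libraries taken at different times and not between mice. Over the 4 shared times, with time as a block, no gene was called between SD and SASD in 13370 (0%; 1082 had an unadjusted p under 0.05 and DESeq2 called 169). The log2 difference for Mpo was 5.56 ± 0.997 (SE, edgeR adjusted p = 0.310). For Elane it was 6.05 ± 0.65 (edgeR adjusted p = 0.310), and for Ctsg 4.41 ± 0.91 (edgeR adjusted p = 0.310). Prtn3 gave 2.34 ± 0.91 (edgeR adjusted p = 0.573) and Ctsc 0.16 ± 0.10 (edgeR adjusted p = 0.743), and Ms4a3 was under the minimum mean count of 10. These estimates are carried by 48 h: without that time, Mpo, Elane and Ctsg fell under the minimum, and Prtn3 gave 0.81 ± 0.78 (edgeR adjusted p = 0.813). DESeq2 gave smaller and less certain log2 differences, 2.63 ± 1.55 for Mpo and 1.59 ± 3.43 for Elane.

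Slopes were fitted on log2(1 + hours/6) from Con onward. Along SD, 18 of 14562 genes were called (0.124%), none of them a member. The SD slope was 2.17 ± 0.54 for Mpo (edgeR adjusted p = 0.259), 1.58 ± 0.34 for Prtn3 (edgeR adjusted p = 0.199) and 0.26 ± 0.10 for Ctsc (edgeR adjusted p = 0.461). Elane and Ctsg had slopes of 1.65 ± 0.61 and 1.64 ± 0.60 (edgeR adjusted p = 0.440 and 0.439). Along SASD, edgeR called no gene of 14602 (0%; 443 had an unadjusted p under 0.05 and DESeq2 called 0), and of the members Prtn3 and Ctsc were tested. Their slopes were -0.30 ± 0.29 and 0.15 ± 0.07, each with an edgeR adjusted p of 0.9999.

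The difference of the SD and SASD slopes, tested itself over 9 libraries, was called in 58 of 14138 genes (0.41%), again with no member. It was 1.82 ± 0.52 for Mpo (edgeR adjusted p = 0.289), 1.14 ± 0.30 for Prtn3 (edgeR adjusted p = 0.244) and 1.84 ± 0.67 for Elane (edgeR adjusted p = 0.486). Ctsg gave 1.38 ± 0.57 (edgeR adjusted p = 0.604) and Ctsc 0.08 ± 0.09 (edgeR adjusted p = 0.929).

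With a term for the split that sets Con and the 48 h libraries apart, 4 members were called higher along SD, beside 4.32% of all genes tested. Mpo, Elane and Ctsg reached the minimum mean count only through SD 48 h, so their calls cannot be read against that share. The SD slope was then 1.87 ± 0.12 for Mpo (edgeR adjusted p = 0.000315), 1.498 ± 0.16 for Elane (edgeR adjusted p = 0.00210) and 1.57 ± 0.24 for Prtn3 (edgeR adjusted p = 0.00909). Ctsg gave 1.47 ± 0.25 (edgeR adjusted p = 0.0156), and Ctsc 0.27 ± 0.08 did not pass (edgeR adjusted p = 0.0795). The same 4 were called for the difference of slopes, beside 1.82% of genes. Here too the calls of Mpo, Elane and Ctsg cannot be read against that share, for the same reason. The values were Mpo 1.94 ± 0.19 and Elane 1.95 ± 0.19 (edgeR adjusted p = 0.00154 each), Ctsg 1.46 ± 0.29 (0.0303) and Prtn3 1.198 ± 0.26 (0.0490). Ctsc stayed at 0.08 ± 0.06 (edgeR adjusted p = 0.622). In that fit the SD slope rests on Con against SD 48 h and on 6 to 24 h separately. Over SD 6, 12 and 24 h Elane had 0, 0 and 1 counts and Ctsg 2, 0 and 0. Without Con and the 48 h libraries, a setting chosen after the data were seen, Prtn3 had an SD slope of 3.99 ± 0.51 (edgeR adjusted p = 0.00417) from 2, 6 and 62 counts.

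Relative to the sums of later neutrophil transcripts used here, the 5 scarce genes were also highest in SD 48 h. Their summed count per 1000000 counts of S100a8 and S100a9, the abundant calprotectin genes of mature neutrophils, was 9922 (9312 to 10561) in SD 48 h, 2109 (1644 to 2665) in SD 24 h and 2033 (1565 to 2596) in Con. In SASD it lay between 240 at 120 h and 1633 at 24 h, and SD 6 h and SD 12 h had 514 and 337. Per 1000 counts of 10 secondary granule genes, the list without Cybb, an oxidase subunit that monocytes also make, SD 48 h had 22.6 (21.2 to 24.1), Con 7.47 (5.75 to 9.54), and the other libraries 0.621 to 4.29. With Cybb as the 11th gene, SD 48 h had 19.0 (17.8 to 20.2), Con 3.28 (2.52 to 4.18), and the others 0.221 to 3.15. Chil3, kept among the 10, is also one of the 6 classical monocyte markers. It made up 394 of their 573 CPM in SASD 48 h and 791 of 2955 in SD 48 h. Ltf, Camp and Ngp were 30.6-, 100- and 63.0-fold higher in SD 48 h than in SASD 48 h. Mpo, Elane, Prtn3, Ctsg and Ms4a3 were 85.7-, 78.2-, 19.9-, 30.5- and 25.3-fold higher. The order of libraries therefore depends on the later genes chosen. Relative to S100a8 and S100a9, Ctsc ran the other way. Its lowest value was in SD 48 h, 40985 per 1000000 of their counts, and its highest in SASD 120 h, 277110. The denominator differed as well: S100a8 and S100a9 summed to 6742 CPM in SD 48 h, their highest library, and 772 in SASD 120 h. As CPM, Ctsc was itself highest in SD 48 h, at 276.

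**Figure D3:**
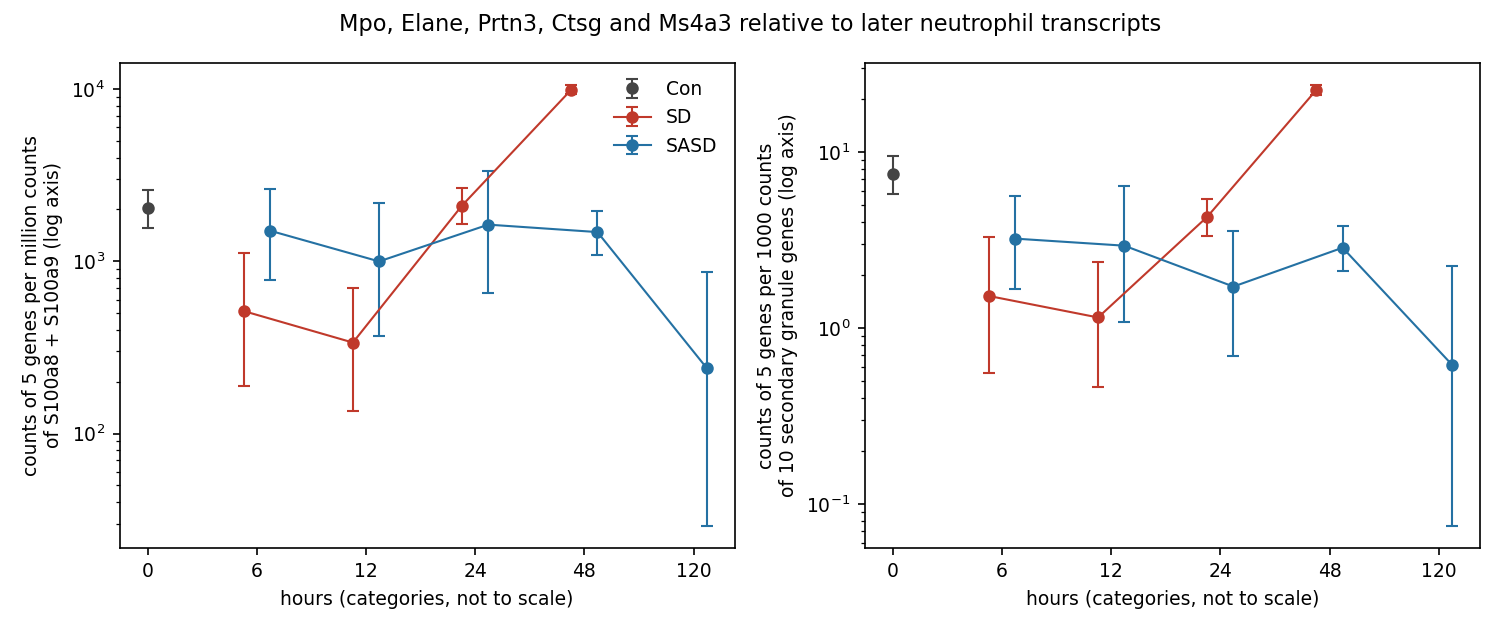
Summed counts of Mpo, Elane, Prtn3, Ctsg and Ms4a3 per 1000000 S100a8 and S100a9 counts (left) and per 1000 counts of 10 secondary granule genes, Cybb left out (right), on log axes, against hours in Con, SD and SASD; bars are exact 95% counting intervals. SD 48 h is highest in both panels, at 9922 and 22.6, an order that depends on the later genes chosen.

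Other contents of the primary granule were described from a list. Of 15 such genes, all measured at 48 h, 3 were at least 2-fold higher in SD than in SASD and none 8-fold, with a median log2 ratio of 0.09 (-0.01 over all genes). Lyz2, the lysozyme of granulocytes and monocytes, stood at 2975 CPM in SD 48 h and 2787 in SASD 48 h. Srgn, the proteoglycan that packs granule proteins, stood at 937 and 450 CPM, and Cd63, a membrane protein of azurophil granules and lysosomes, at 21.4 and 7.51 CPM. Cd63 was the only gene of this list called for the difference of slopes (0.46 ± 0.06, edgeR adjusted p = 0.0267). Prss57, another granule serine protease on chromosome 10 at chr10:79781474-79790961, had 31 counts in Con, 7, 12, 15 and 14 in SD, and 5, 1, 3, 9 and 0 in SASD. The ratio of SD to SASD for Prss57 was 3.02 (1.22 to 7.92) at 48 h and 11.1 (1.64 to 474) at 12 h, the latter against 1 count. Its ratio of SD 48 h to Con was 0.981 (0.482 to 1.90), where Prtn3 had 21.3 (14.0 to 33.9).

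Inhibitors of these proteases and other substrates of cathepsin C were described from lists. Of 8 inhibitors 4 were measured at 48 h, with a median log2 ratio of 0.58 and 1 at least 2-fold higher. That was Slpi, the secretory leukocyte protease inhibitor, which inhibits elastase and cathepsin G. Slpi stood at 68.0 CPM in Con, 64.7, 132, 161 and 209.9 in SD, and 58.0, 52.2, 72.3, 77.7 and 65.9 in SASD, and its difference of slopes was called (0.50 ± 0.08, edgeR adjusted p = 0.0337). Serpinb1a, an intracellular inhibitor of the granule proteases, was at 144 and 146 CPM in SD and SASD at 48 h. Of 9 other cathepsin C substrates 7 were measured, with a median of 0.19 and 2 at least 2-fold higher, and the 2 most abundant, Gzma and Gzmb of cytotoxic lymphocytes, had log2 ratios of 0.06 and 0.22. Of 8 haem peroxidase genes 3 were measured at 48 h, and Mpo alone was at least 2-fold higher, the cyclooxygenases Ptgs1 and Ptgs2 standing at 0.61 and 0.52.

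Transcription factors and progenitor genes were taken next. Of 12 promyelocyte factors 2 were at least 2-fold higher in SD than in SASD at 48 h (median log2 ratio 0.46): Cebpe, which acts in the passage from promyelocyte to myelocyte, at 5.56 against 1.61 CPM, and Cebpd at 61.7 against 26.98 CPM. Myb, the factor of immature progenitors, had a log2 ratio of -0.55, and Spi1, which encodes PU.1, 0.80. Of 12 stem and progenitor genes 11 were measured, with a median of 0.62. Kit, the stem cell factor receptor, stood at 10.2 against 3.35 CPM and Cd34 at 2.24 against 0.733. No gene of either list was called for the difference of slopes. With the library split term, 3 of the 12 factors were called higher for that difference (edgeR adjusted p = 0.0495 for Cebpa, 0.0126 for Cebpd and 0.0285 for Spi1). Along SD 5 of 12 were. Over all genes the shares were 1.82% for the difference and 4.32% along SD. Of the 11 progenitor genes tested 0 and 1 were called higher. The later lists had more such calls: 5 and 10 of 11 secondary granule genes, and 8 and 8 of 10 tertiary granule and mature neutrophil genes.

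Secondary granule genes, which follow in maturation, had a median log2 ratio of 3.62 at 48 h, with 10 of 11 at least 2-fold higher. Camp (cathelicidin) was at 77.1 against 0.768 CPM, Ngp at 462 against 7.33, and Ltf (lactoferrin) at 305 against 9.98. Tertiary granule and mature neutrophil genes had a median of 2.61, with 8 of 10 at least 2-fold higher. The medians of these lists were already 0.954 and 1.496 at 12 h, where Prtn3 had 6 counts in SD. At 24 h the medians were 0.97 and 1.32, where Prtn3 was the only scarce member with more than 7 counts in SD. Not all genes named above were early. The ratio of SD to SASD for Ltf was 1.15 (0.829 to 1.60) at 12 h and 0.683 (0.517 to 0.903) at 24 h. For Ngp it was 2.13 (1.57 to 2.92) and 1.97 (1.54 to 2.55). Camp was under the minimum mean count of 10 at both times, with ratios of 1.58 (0.575 to 4.75) and 1.45 (0.475 to 5.25). Members and these lists share libraries, so no test of one against the other was made.

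**Figure D4:**
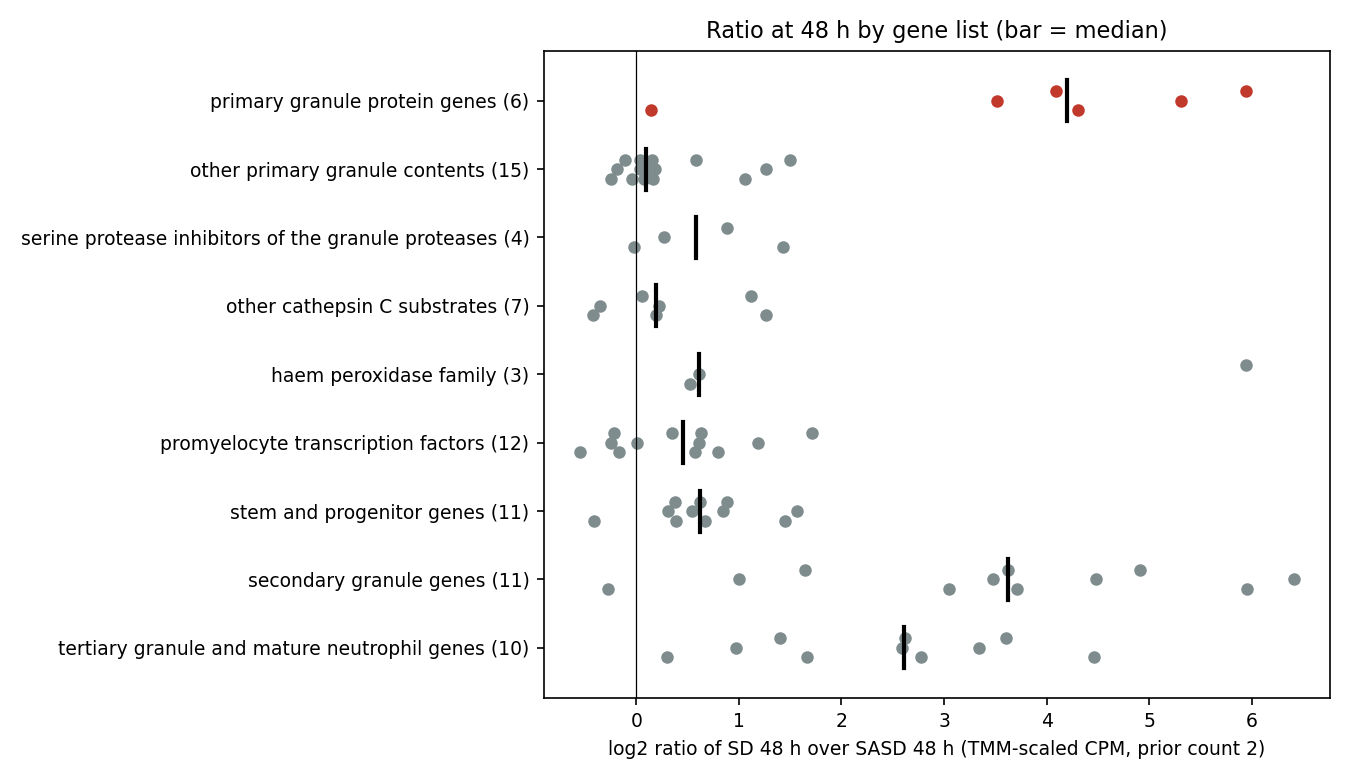
Log2 ratio of SD 48 h over SASD 48 h (x axis, TMM-scaled CPM with a prior count of 2) for the measured genes of each list (rows, number in brackets); points are genes and bars are medians. Mpo, Elane, Prtn3, Ctsg and Ms4a3 lie between 3.51 and 5.94 and Ctsc at 0.14, the other primary granule contents centre on 0.09 and the secondary granule genes on 3.62.

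Likeness to the members was measured as Pearson's r of log2 CPM over the 10 libraries, among 13982 genes averaging 10 counts or more, as a description with points that share libraries and depth. Nearest to Mpo were Elane (0.97), Camp (0.95), Saa3, Acvr1b and Stfa1, all at 0.95. Nearest to Elane were Mpo (0.97), Camp (0.97), Cxcl12 (0.95), Ctsg (0.95) and Kit (0.93). Ctsg was nearest to Ngly1 (0.96), Elane (0.95), Cox6b1 (0.95), Tpx2 (0.94) and Camp (0.93). SD 48 h held 92.1%, 89.9% and 85.3% of the counts of Mpo, Elane and Ctsg, which were ranked only through it. Their r values with each other rest largely on that library, so their mutual ranks are no separate evidence of likeness. Prtn3 was nearest to genes outside the granule, Adora3, Cldn15, Dclre1b and Ptgfrn at 0.93 and Zfp516 at 0.92, and ranked 51st from Mpo and 149th from Elane. Ctsc was nearest to Ifi30 (0.98), a lysosomal thiol reductase of antigen-presenting cells, Rassf4 (0.97), Steap3, Evi2a (both 0.96) and Copb2 (0.95), and ranked 1062nd from Mpo. Ms4a3 had too few counts to be ranked.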

How the data were processed

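The authors used Trimmomatic 0.39 for trimming and STAR 2.7.9a for alignment to mm10, per the submitters' processing notes. Exonic read pairs were summed by gene with featureCounts 2.0.3, with no strand option, per the file headers. The deposited values were raw counts, used as they stand. IDs were paired with symbols for 32158 of 32285 genes.

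TMM factors and the quasi-likelihood test of edgeR 4.0.16 (R 4.3.3) were used on genes averaging 10 counts or more, with Benjamini-Hochberg adjustment over all genes tested and calls at 0.05. The fits were SD against SASD with time as a block, slopes along SD and along SASD, and their difference. They were tested on simulated data. Alternatives were DESeq2 1.42.0, its size factors, total counts, no count minimum, hours as they stand, a term for the library split, and leaving out times or libraries. Ratios between libraries carry exact conditional binomial intervals (scipy 1.17.1). Only in a ratio was a count of 0 replaced, by a floor of 3 counts that gives a bound. Levels, sums and shares kept counts of 0.

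All 6 members were named, and of each other gene list those most abundant on average and those called. Other names (Prss57, Cybb, Cebpa, Cebpe, Cebpd, Myb, Spi1, Kit, Cd34, Camp, Ngp, Ltf, Lpo, Epx, Plppr3, Ptgs1, Ptgs2) were chosen after their values were seen. Some genes of the lists are not reported here by name. The members, the lists and the motifs were chosen with earlier results of these data known. Groups had 1 library of pooled RNA each, so times or slopes stood in for replicates.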

Additional observations from a re-analysis of the deposited data

How the results depend on the processing

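Libraries were paired by time in SD against SASD, and the labels carry no replicate numbers for another pairing. Counts of called genes moved with the fit, and the cause was not tested. SD against SASD called 0 genes, against 169 with DESeq2, 389 with no count minimum, and 0 to 237 when a time was left out (237 without 6 h). The SD slope called 18, against 456 with DESeq2, 63 with no minimum, 0 with hours as they stand, 796 with the library split term, 314 without Con and the 48 h libraries, and 0 to 511 when a library was left out (53 without Con, 511 without SD 48 h, and 0 without SD 6 h, SD 12 h or SD 24 h). The SASD slope called 0, and 0 to 1 when a library was left out (1 without SASD 48 h). The difference of slopes called 58, against 272 with DESeq2, 88 with no minimum, 6 with hours as they stand, 264 with the split term, 197 without Con and the 48 h libraries, and 0 to 117 when a library or time was left out (117 without Con, 18 without 6 h, 1 without 48 h, and 0 without 12 h or 24 h).

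For the members, the ratio of Ctsc at 48 h was 1.10 and 1.01 with total counts. The Prtn3 slope along SASD, -0.30, ran from -0.34 without SASD 24 h to 0.042 without SASD 120 h, where its sign changed. With no minimum, the difference between SD and SASD passed for Mpo (5.60, edgeR adjusted p = 1.96e-07), Elane (6.06, 1.72e-06), Prtn3 (2.39, 0.00405), Ctsg (4.40, 5.3e-04) and Ms4a3 (4.37, 0.0498), which had too few counts for the reported fit. Without 6 h it passed for Mpo (6.10, edgeR adjusted p = 0.0151) and Elane (6.12, 0.0174). Without Con the SD slope passed for Mpo (5.54) and Elane (7.31), each with an edgeR adjusted p of 0.00771, and for Prtn3 (2.69, 0.0241). SD 48 h held 92.1%, 89.9%, 85.3% and 84.8% of the counts of Mpo, Elane, Ctsg and Ms4a3. The passes of these genes rest on that library and cannot be read as a steady difference or slope. DESeq2 called Prtn3 for the SD slope (1.52, adjusted p = 0.0259) and for the difference of slopes (1.10, adjusted p = 0.0270). Over all alternatives of the members' values, 128 of 151 kept direction and side of the threshold, 22 passed it newly and 1 changed sign. A further 11 values came from fits that tested a gene left untested in the reported fit. Depth limited Elane, Ctsg and Ms4a3, at 3 counts or fewer in 7, 7 and 9 libraries.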
